A study of Mus musculus with 4 samples.

Results

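The 40 genes described here code for the machinery of mitosis: the cyclins and kinases that start it, the kinetochore and spindle checkpoint proteins, the kinesins and other spindle proteins, the cytokinesis proteins, and 2 transcription factors. They were listed by name, and all 40 were found among the 55401 genes of the table and passed the filter on low counts, as 15832 genes did. The values are estimated read counts from poly(A) RNA sequencing of mouse BMDM (bone marrow-derived macrophages, grown from marrow precursors in a dish). In the Adcy7 knockout libraries (n = 2) the marrow cells of C57BL/6J mice had been given CRISPR-Cas9 lentivirus directed at Adcy7, the gene of an adenylyl cyclase, which makes cyclic AMP. In the Rosa control libraries (n = 2) the same cells had been given CRISPR-Cas9 lentivirus directed at Rosa, a safe-harbour locus often chosen for control guides. Both groups received the virus on day 1 from isolation, at an MOI (ratio of virus to cells) of 30, became macrophages over 5 days, and carry batch number 1. The labels give neither the age or number of mice, nor the number of guides, nor the share of edited cells, so differences between guides or cultures cannot be told apart from the target. They also do not state that the replicates were separate cultures or animals, so p-values measure the spread between these libraries, which may be technical. The libraries held 61782358 to 71914179 counts. Adcy7 itself was at 59.4 and 58.8 CPM (counts per 1000000 counts of the library) in the knockout, against 122 and 125 CPM in the control, or 48.4% of the control level by the fit.

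In a cell that is about to divide, cyclin A2 and the B cyclins activate Cdk1, which brings the cell into mitosis together with the kinases Plk1, Aurka and Aurkb. Kinetochores tie chromosomes to the spindle, and the checkpoint proteins Bub1, Bub1b, Mad2l1 and Ttk hold back Cdc20 until all are attached. The anaphase-promoting complex (APC/C), with Cdc20 and Ube2c, then marks cyclin B for destruction, and kinesins and cytokinesis proteins separate the daughter cells. Most of these genes are transcribed late in the cycle, by way of short promoter elements bound by NF-Y and by the MuvB complex with Mybl2 and Foxm1. Marrow progenitors divide in culture while they become macrophages.

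All 40 mitotic genes were lower in both Adcy7 knockout libraries than in both Rosa control libraries, with no overlap between the groups for any of them. Together they made up 0.0457% and 0.054% of the counts in the knockout libraries, against 0.193% and 0.185% in the control libraries. Each of the 40 fell at an adjusted p of at most 0.00018 in the quasi-likelihood test of edgeR, adjusted by Benjamini-Hochberg over all tested genes. Across all tested genes, 24.6% were called lower by the same rule, 25% were called higher, and 37.8% had both knockout libraries below both control libraries. The members' median log2 fold change of knockout over control was -1.93, with quartiles of -2.20 and -1.78, while the median of all tested genes was 0.01. In bulk RNA, fewer dividing cells and less of these mRNAs per cell cannot be told apart.

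Against a null of a 2-fold change (edgeR's glmTreat, which tests whether a change is larger than a set fold), 39 of the 40 were lower by more than 2-fold. Of all tested genes, 5.89% were lower and 6.71% higher by more than 2-fold. The exception was Mki67, the gene of the Ki-67 proliferation antigen, at 43.9% of the control level and an adjusted p = 0.071, which became 0.0405 without knockout replicate 1. This call was lost for Cdc25c without knockout replicate 1 (adjusted p = 0.126), for Ttk without knockout replicate 2 (0.0751) and for Incenp without Rosa control replicate 1 (0.127). For Mybl2 it was lost without knockout replicate 1 (0.109) and without Rosa control replicate 1 (0.25) or 2 (0.06). In 17 of the 40 the fitted level was under 25% of the control and in 23 it lay between 25% and 50%. The narrowest gap was a lowest control value 2.21 times the highest knockout value and the widest was 6.74 times.

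**Figure D1:**
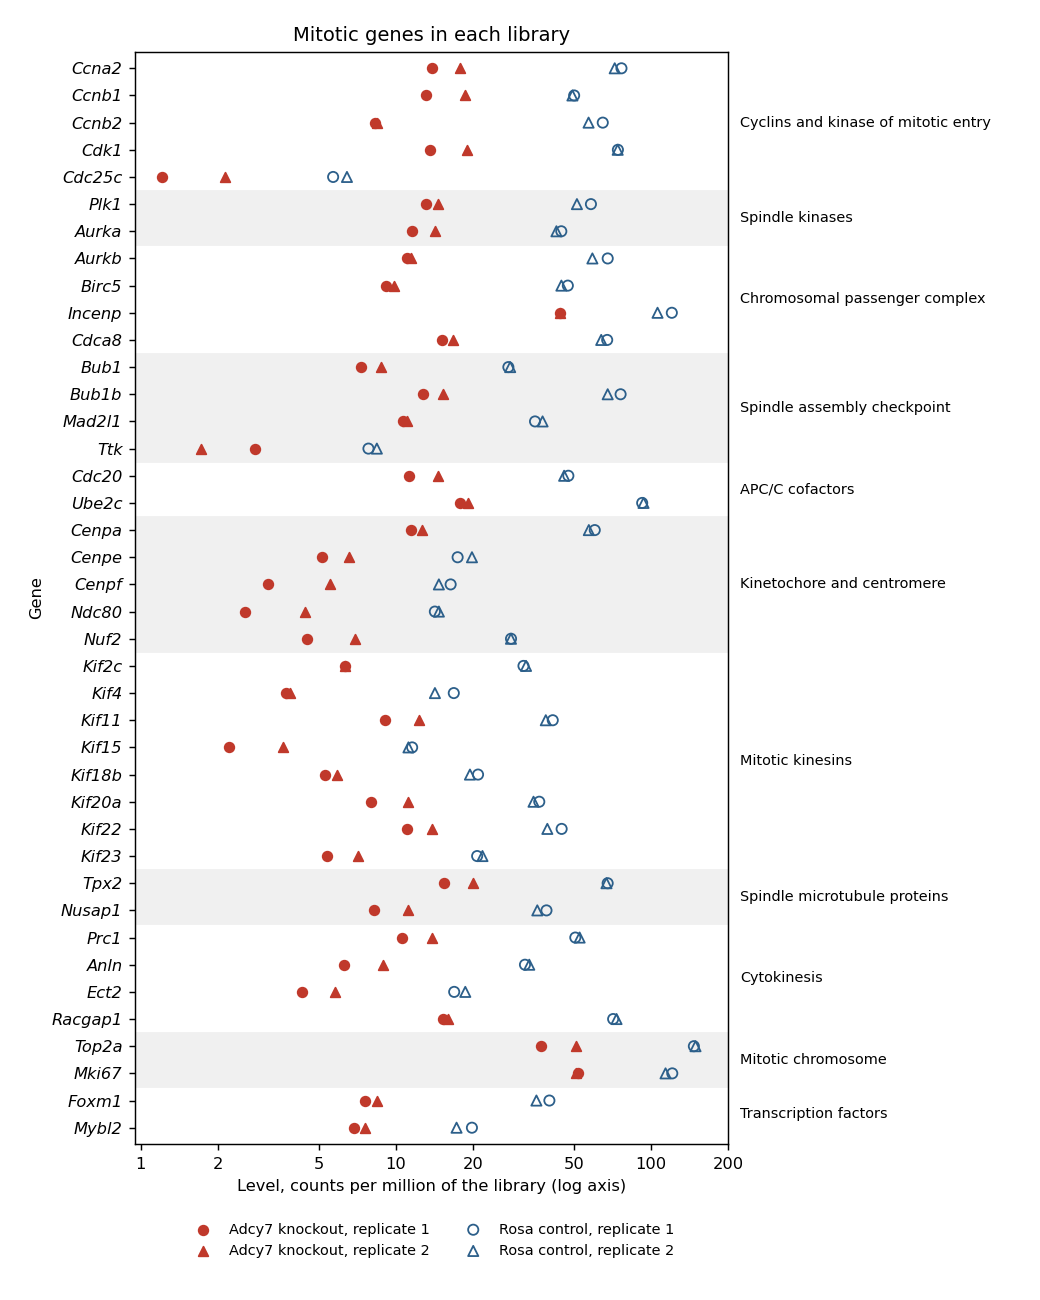
Level of each of the 40 mitotic genes in CPM (log axis), 1 row per gene, grouped by role. Filled red points are the Adcy7 knockout libraries and open blue points the Rosa control libraries, with circles for replicate 1 and triangles for replicate 2. In every row both red points lie left of both blue points, and the red triangle lies right of the red circle in 37 of the 40 rows.

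The sequences upstream of these genes are shown because the members share short elements there that their selection did not use. RefSeq promoters (build GRCm38.p6, 250 bases before to 50 after the transcript start, the first listed for each gene) were matched by symbol for 33 of the 40 members. Those not matched were Ccna2, Cdc25c, Aurkb, Incenp, Kif20a, Tpx2 and Foxm1. The element TTTGAA, known as the cell cycle genes homology region (CHR), was searched on both strands and was found in 25 of the 33, or 75.8%, against 18.1% of 27025 promoters of all genes and 12.5% of 10723 promoters of tested genes. In the 250 bases before the start alone the member share was 33.3%, against 16.3% of all promoters and 11.1% of those of tested genes. CCAAT, the core of the NF-Y box, was found on either strand in 24 of the 33, or 72.7%, against 37.9% of all promoters and 39% of those of tested genes. CCAAT together with TTTGAA or its variant TTCGAA was found in 22 of the 33 promoters, against 7.7% of all promoters. Within 40 bases of the start, TTTGAA or TTCGAA lay in 23 of the 33 member promoters, or 69.7%, against 4.49% of all promoters. The TATA element TATAAA was found in 1 of the 33, or 3.03%, against 14.2% of all promoters and 7.26% of those of tested genes. E2F-type sites, searched on both strands in 4 forms (TTTCCCGC, TTTCGCGC, TTTGCCGC and TTTGGCGC), were in 2 of the 33, or 6.06%, against 2.32% of all promoters and 4.07% of those of tested genes. In 1 place in these promoters a CCAAT match overlapped a CHR match. These matches are descriptions of the letters in the window, not evidence of binding. Below are the 120 bases before and 15 after the start for the member with the largest fall (Ccnb2), for Cdc20, Ube2c, Cdk1, Top2a and Kif11 as examples with both elements close to the start, and for Mki67 and Mybl2, which are among the 3 smallest falls. These examples were picked after the values were seen. Each runs 5′ to 3′ along the gene, and capitals mark the NF-Y core and both forms of the CHR. On the opposite strand the core reads ATTGG and the main CHR form reads TTCAAA.
Ccnb2, chr9:70421540-70421674, minus strand: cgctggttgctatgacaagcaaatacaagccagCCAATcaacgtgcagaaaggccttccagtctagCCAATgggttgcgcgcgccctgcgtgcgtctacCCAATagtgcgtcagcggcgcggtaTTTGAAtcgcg
Cdc20, chr4:118437329-118437463, minus strand: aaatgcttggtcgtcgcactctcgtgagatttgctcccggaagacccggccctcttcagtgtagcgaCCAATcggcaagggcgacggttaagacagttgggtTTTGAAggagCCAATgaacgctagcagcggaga
Ube2c, chr2:164769809-164769943, plus strand: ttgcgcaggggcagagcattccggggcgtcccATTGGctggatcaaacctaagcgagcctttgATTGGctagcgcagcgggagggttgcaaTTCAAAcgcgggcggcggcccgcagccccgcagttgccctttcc
Cdk1, chr10:69352898-69353032, minus strand: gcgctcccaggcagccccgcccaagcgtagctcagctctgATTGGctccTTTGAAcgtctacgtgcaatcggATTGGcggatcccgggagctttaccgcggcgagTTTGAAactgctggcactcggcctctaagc
Top2a, chr11:99024175-99024309, minus strand: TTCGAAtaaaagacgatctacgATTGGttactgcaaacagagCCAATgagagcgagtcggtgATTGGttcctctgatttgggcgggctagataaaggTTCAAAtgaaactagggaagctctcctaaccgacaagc
Kif11, chr19:37376262-37376396, plus strand: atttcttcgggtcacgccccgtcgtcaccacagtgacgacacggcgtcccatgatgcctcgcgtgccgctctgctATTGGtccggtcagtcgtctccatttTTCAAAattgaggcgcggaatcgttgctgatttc
Mki67, chr7:135716365-135716499, minus strand: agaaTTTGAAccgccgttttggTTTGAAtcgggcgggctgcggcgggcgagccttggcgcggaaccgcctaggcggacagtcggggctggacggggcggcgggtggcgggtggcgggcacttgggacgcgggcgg
Mybl2, chr2:163054515-163054649, plus strand: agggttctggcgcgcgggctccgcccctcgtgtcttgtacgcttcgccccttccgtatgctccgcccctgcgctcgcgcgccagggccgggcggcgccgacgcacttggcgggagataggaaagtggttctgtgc

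In these windows Ccnb2 held 3 CCAAT matches before the start and 1 TTTGAA just after it. Cdk1 held 2 CCAAT and 2 TTTGAA matches, and Kif11 held 1 of each. Mki67 held 2 TTTGAA matches well upstream of the start and no CCAAT, although CCAAT occurred 3 times farther upstream. Mybl2 held neither. The 23 promoters with TTTGAA or TTCGAA within 40 bases of the start had a median log2 fold change of -1.96 and the 10 without had -1.84, a difference that was not tested. The 5 members with neither CCAAT nor a TTTGAA or TTCGAA in the window, Nuf2, Nusap1, Mybl2, Mad2l1 and Birc5, had a median of -1.94. The 22 with both kinds of element had a median of -1.87, and the 6 with only 1 kind had -2.02. These differences were not tested either.

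**Figure D2:**
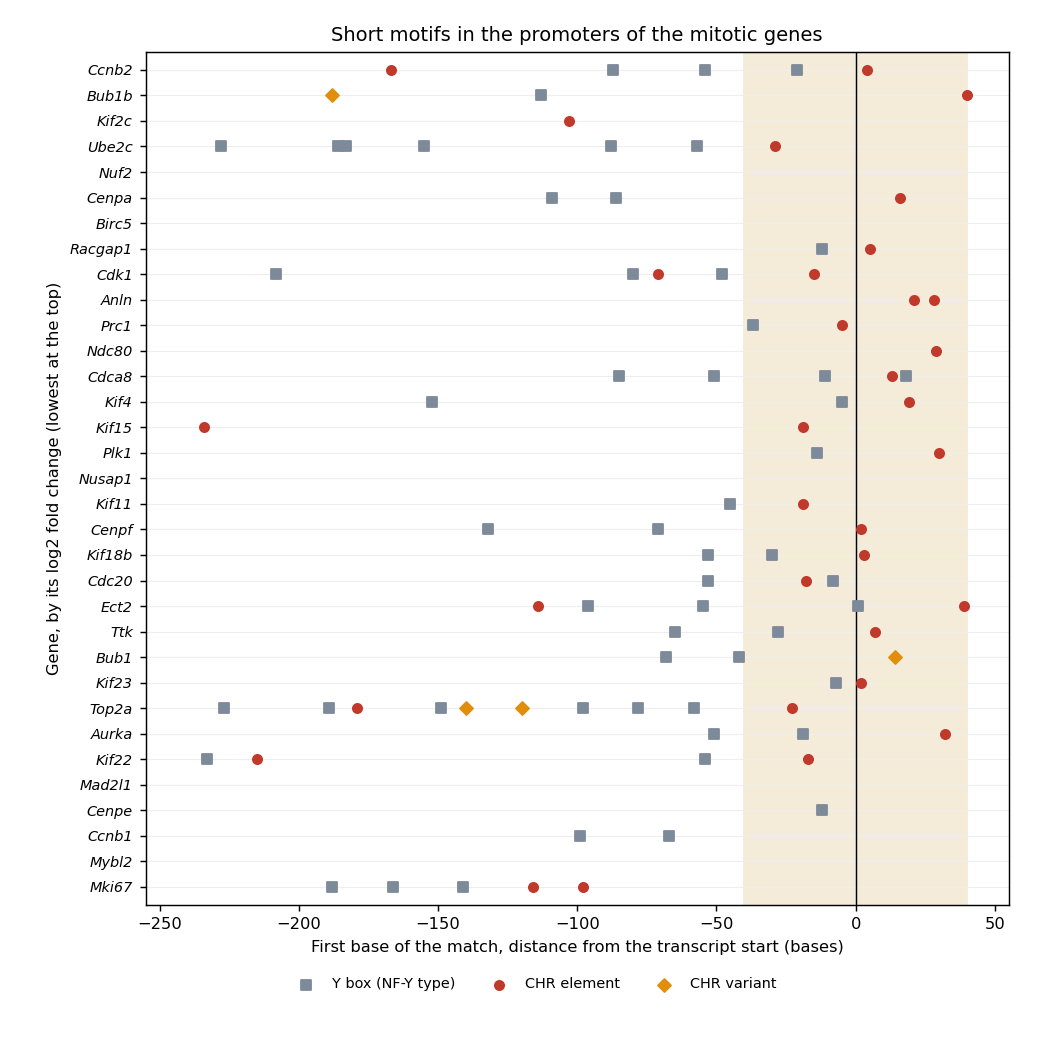
Position of short motifs in the promoters of 33 mitotic genes, 1 row per gene, ordered by log2 fold change with the lowest at the top; the x axis is the distance of the first base of each match from the transcript start, in bases. Grey squares are CCAAT, red circles TTTGAA and orange diamonds TTCGAA, on either strand, and the shaded band covers 40 bases on each side of the start. Red circles and orange diamonds lie in the band in 23 of the 33 rows.

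Among the cyclins and the kinase of mitotic entry, Ccnb2 (cyclin B2) fell the most of all 40. Ccnb2 was at 8.3 and 8.43 CPM in the knockout, against 64.6 and 56.8 CPM in the control. The knockout libraries lay close together, and the fitted level was 13.9% of the control. On the log2 scale it fell by 2.84 (standard error, SE, 0.12, adjusted p = 1.78e-08). Ccnb1, the gene of the other mitotic B cyclin, was at 13.2 and 18.6 CPM in the knockout, against 49.9 and 49.1 CPM in the control. It fell by 1.63 on the log2 scale (SE 0.14, adjusted p = 4.22e-06), and knockout replicate 2 was the higher of the pair. Processed pseudogenes with 97.3% to 99.2% identity to Ccnb1 exist, so reads of Ccnb1 may be split among copies. These pseudogenes held 50 to 240 counts each in all libraries together, while Ccnb1 held 947 to 3433 in each library. Ccna2 (cyclin A2) and Cdk1 reached 21.5% and 22.1% of the control level, with knockout libraries at 13.8 and 17.8 CPM against control libraries at 76.5 and 72 CPM for Ccna2. Cdk1, the kinase these cyclins activate, had 13.6 and 19 CPM in the knockout, against 74.1 and 73.9 CPM in the control. Cdc25c, a phosphatase that switches Cdk1 on, was the lowest of the group, at 1.21 and 2.14 CPM in the knockout, against 5.67 and 6.43 CPM in the control, and fell by 1.87 (SE 0.27, adjusted p = 0.00018).

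The ratio of Ccnb2 to Ccnb1 counts did not overlap between the groups. It was 0.63 and 0.452 in the knockout, against 1.29 and 1.16 in the control. A ratio within a library is free of scaling. An exact permutation test of 2 libraries against 2 cannot give a two-sided p below 0.333, and the pairs were picked for their values, so the ratios are given with no test.

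The kinases and the chromosomal passenger complex, which corrects faulty attachments between kinetochores and spindle, fell by 1.35 to 2.48 on the log2 scale. Aurkb, the kinase of the complex, was at 11 and 11.4 CPM in the knockout, against 67.6 and 58.8 CPM in the control. It fell by 2.48 (SE 0.12), to 17.9% of the control level (adjusted p = 3.91e-08). Birc5 (survivin), which brings the complex to centromeres, and Cdca8 (borealin) fell by 2.26 (SE 0.12) and 2.03 (SE 0.11). Incenp, the scaffold to which the others bind, was at 44.1 and 43.8 CPM in the knockout, against 120.5 and 105.9 CPM in the control. It fell by 1.35 (SE 0.10, adjusted p = 1.13e-06), among the 3 smallest changes of the 40. The Aurkb to Incenp count ratio was 0.25 and 0.261 in the knockout, against 0.561 and 0.556 in the control. Plk1, the polo-like kinase of centrosome maturation and mitotic exit, had 13.1 and 14.6 CPM in the knockout, against 58.1 and 51.2 CPM in the control, and fell by 1.96 (SE 0.12, adjusted p = 2.05e-07). Aurka, the kinase of spindle poles, fell by 1.74 (SE 0.12), and its activator Tpx2 by 1.91 (SE 0.13). Tpx2 was at 15.4 and 20.1 CPM in the knockout, against 67.5 and 66.8 CPM in the control.

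**Figure D3:**
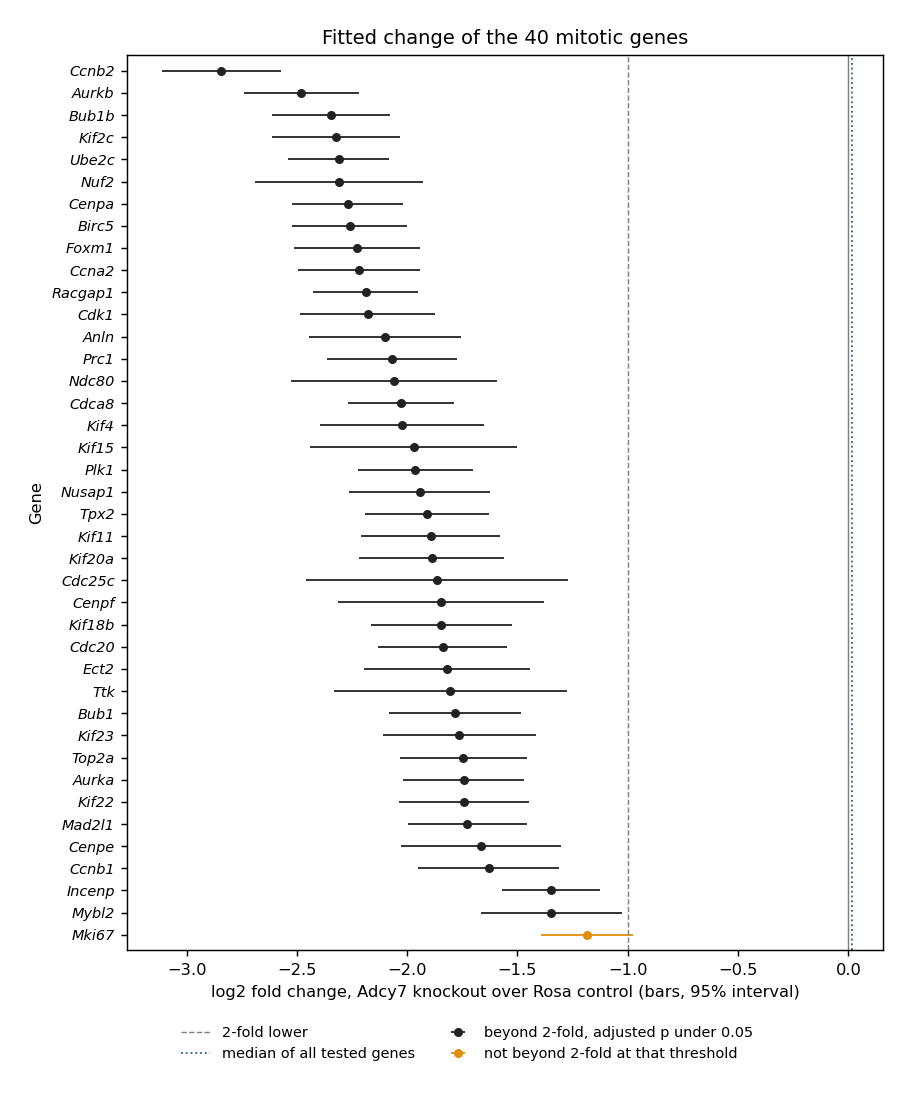
Fitted log2 fold change of Adcy7 knockout over Rosa control for the 40 mitotic genes, 1 row per gene, sorted. Bars are 95% intervals derived from the edgeR test. The dashed line marks a 2-fold lower level and the dotted line the median of all tested genes at 0.01. Points run from -2.84 for Ccnb2 to -1.19 for Mki67, the 1 orange point, whose interval reaches past the dashed line.

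All 4 genes of the spindle assembly checkpoint fell. Bub1b (BubR1, part of the complex that inhibits Cdc20) was at 12.7 and 15.3 CPM in the knockout, against 75.9 and 67.5 CPM in the control, and fell by 2.34 (SE 0.12, adjusted p = 6.82e-08). Bub1, Mad2l1 and Ttk (the kinase Mps1, which starts checkpoint signalling) fell by 1.78 (SE 0.14), 1.73 (SE 0.12) and 1.80 (SE 0.24). Ttk was higher in knockout replicate 1 than in replicate 2, with 2.81 and 1.72 CPM in the knockout, against 7.8 and 8.42 CPM in the control. The checkpoint's target Cdc20 and the APC/C ubiquitin-conjugating enzyme Ube2c fell by 1.84 (SE 0.13) and 2.31 (SE 0.10). Ube2c was at 17.9 and 19.2 CPM in the knockout, against 92.2 and 93.3 CPM in the control. Cdc20 had 11.2 and 14.6 CPM in the knockout, against 47.4 and 45.6 CPM in the control. By comparison the 16 core subunits and partners of the APC/C had a median of -0.22, with 7 lower, 3 higher and 6 that did not pass. The most significant of them was Anapc16, a small subunit, which averaged 38.4 ± 0.763 CPM in the knockout, against 16.3 ± 0.793 CPM in the control (SD, n = 2 each, adjusted p = 4.62e-06). The next by adjusted p, Anapc5, Anapc15 and Cdc16, fell by 0.89 (SE 0.09), 0.92 (SE 0.13) and 0.75 (SE 0.11).

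Kinetochore and centromere genes fell by 1.67 to 2.31 on the log2 scale. Cenpa, the histone H3 variant that marks centromeres, was at 11.4 and 12.6 CPM in the knockout, against 60.1 and 57 CPM in the control, and fell by 2.27 (SE 0.11, adjusted p = 5.43e-08). Nuf2 and Ndc80, which form the dimer that grips microtubules, fell by 2.31 (SE 0.17) and 2.06 (SE 0.21). Nuf2 was at 4.49 and 6.9 CPM in the knockout, against 28.2 and 28.2 CPM in the control. Ndc80 was at 2.56 and 4.4 CPM in the knockout, against 14.2 and 14.7 CPM in the control. Cenpe, a kinesin that carries chromosomes to the spindle equator, and Cenpf, a large kinetochore protein, fell by 1.67 (SE 0.16) and 1.85 (SE 0.21). For Nuf2, Ndc80 and Cenpf knockout replicate 2 was over 1.5 times replicate 1, and still below both control libraries.

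All 8 mitotic kinesin genes fell, with a median of -1.89 and a range of -2.32 to -1.74. Kif2c (MCAK, which takes microtubules apart at kinetochores) fell most, with 6.31 and 6.33 CPM in the knockout, against 31.6 and 32.3 CPM in the control. It fell by 2.32 (SE 0.13, adjusted p = 1.31e-07). Kif11 (Eg5, which pushes spindle poles apart) was at 9.04 and 12.3 CPM in the knockout, against 41.1 and 38.6 CPM in the control, and fell by 1.89 (SE 0.14). Kif4 and Kif22, motors that bind chromosome arms, fell by 2.02 (SE 0.17) and 1.74 (SE 0.13). Kif15, which supports the bipolar spindle beside Kif11, and Kif18b, a microtubule-shortening motor, fell by 1.97 (SE 0.21) and 1.85 (SE 0.15). Kif20a and Kif23, motors of the central spindle in cytokinesis, fell by 1.89 (SE 0.15) and 1.76 (SE 0.16). The kinesins and light chains of intracellular transport, from a list drawn up beside the members, had a median of -0.20 over the 23 tested, with 5 lower, 3 higher and 15 that did not pass. Among them Kif1c, a motor of vesicle transport, averaged 255 ± 18 CPM in the knockout, against 137 ± 8.61 CPM in the control (adjusted p = 1.91e-05), and Kifc3 fell by 2.34 (SE 0.17). The difference between mitotic and transport kinesins was not tested.

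The remaining spindle, cytokinesis and chromosome genes gave the same direction. Nusap1, which bundles spindle microtubules, fell by 1.94 (SE 0.14). Of the cytokinesis genes, Racgap1 and Kif23 form the centralspindlin complex, Prc1 bundles the midzone microtubules, Ect2 activates RhoA and Anln links the contractile ring to the membrane. Racgap1 was at 15.3 and 16 CPM in the knockout, against 70.9 and 73.2 CPM in the control, and fell by 2.19 (SE 0.11, adjusted p = 4.92e-08). Prc1, Anln and Ect2 fell by 2.07 (SE 0.13), 2.10 (SE 0.16) and 1.82 (SE 0.17). Top2a, the topoisomerase that untangles sister chromatids, was the member with the highest CPM in the control, at 36.9 and 50.8 CPM in the knockout, against 147 and 149 CPM in the control. It fell by 1.75 (SE 0.13, adjusted p = 1.18e-06). Mki67, which coats mitotic chromosomes, was at 51.5 and 50.5 CPM in the knockout, against 121 and 114 CPM in the control. It fell by 1.19 (SE 0.09, adjusted p = 1.88e-06), the smallest change of the 40. The count ratio of Mki67 to Top2a was 1.39 and 0.994 in the knockout, against 0.823 and 0.763 in the control.

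Both transcription factors on the list, which activate genes of this kind, were lower themselves. Foxm1, the forkhead factor of G2 and M phase genes, was at 7.57 and 8.4 CPM in the knockout, against 39.9 and 35.5 CPM in the control. It fell by 2.23 (SE 0.13, adjusted p = 1.58e-07), to 21.4% of the control level. Mybl2 (B-Myb), the partner of the MuvB complex, was at 6.87 and 7.57 CPM in the knockout, against 19.8 and 17.3 CPM in the control. It fell by 1.35 (SE 0.15, adjusted p = 1.97e-05). The Foxm1 to Mybl2 count ratio was 1.1 and 1.11 in the knockout, against 2.01 and 2.06 in the control. The 7 pairs of members given as ratios were picked after their fold changes had been seen.

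**Figure D4:**
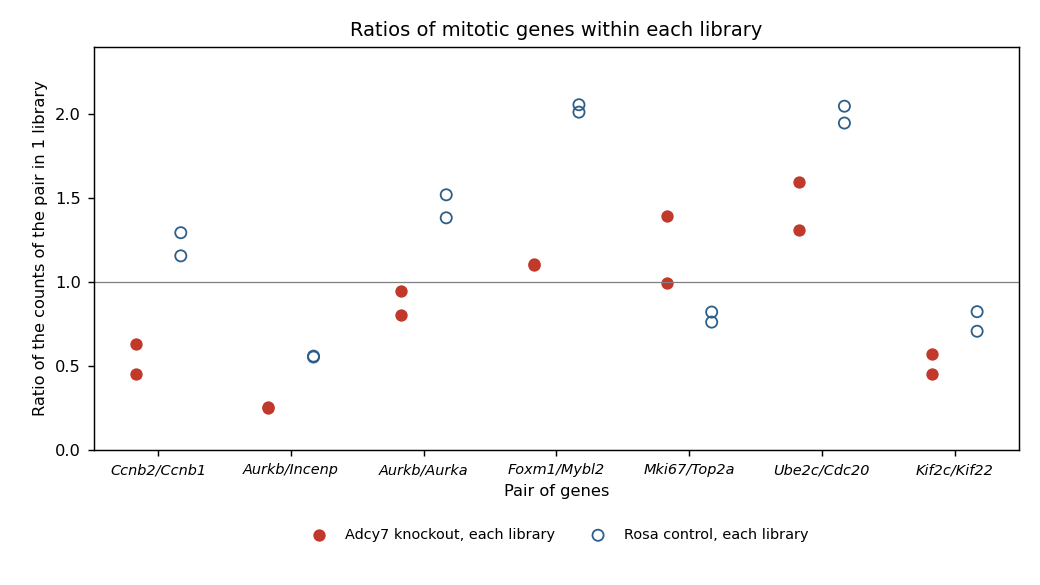
Ratio of the counts of 2 mitotic genes within each library, for 7 pairs; filled red points are the Adcy7 knockout libraries and open blue points the Rosa control libraries. The groups do not overlap for any of the 7 pairs, and Mki67/Top2a is the 1 pair that is higher in the knockout.

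Per kilobase of merged exons, which allows levels to be set side by side between genes, Ccnb2, Ube2c, Incenp, Cdc20 and Plk1 were the highest of the 40 in the control, at 39.7, 35.7, 26.1, 24.9 and 24.8 CPM per kilobase. In the knockout they were at 5.47, 7.12, 10.1, 6.91 and 6.31 CPM per kilobase. Incenp was the highest in the knockout and Ccnb2, first in the control, stood below all the other 4. At the low end, Cenpf, Kif15, Cdc25c and Ttk were at 0.281, 0.264, 0.34 and 0.46 CPM per kilobase in the knockout, against 1.01, 1.03, 1.23 and 1.65 in the control. Exon lengths came from an annotation of another build, and no error was attached to these levels.

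Between replicates, 37 of the 40 members had a higher CPM in knockout replicate 2 than in knockout replicate 1, with a median ratio of 1.24 and a range of 0.611 to 1.77. In the control 14 of the 40 were higher in replicate 2, with a median ratio of 0.96 and a range of 0.844 to 1.14. Ttk, Incenp and Mki67 were the 3 that were not higher in knockout replicate 2. The same count over all tested genes was not made, so this shift may not be particular to the members. The ratio went past 1.5 in 6 members in the knockout (Cdc25c, Cenpf, Ndc80, Nuf2, Kif15 and Ttk) and in none in the control. Without knockout replicate 1 the median fold change of the members was -1.75, and without knockout replicate 2 it was -2.10, with all 40 called lower either way.

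Reads cannot be assigned with certainty where a member overlaps another gene, since no strand-keeping method is named. Kif20a shares 1271 exon bases with Cdc23 on the opposite strand, Kif4 shares 832 with Pdzd11, and Ccna2 shares 510 with Exosc9. These partners had log2 fold changes of -0.49 (SE 0.13) for Cdc23, -0.01 (SE 0.12) for Pdzd11 and 0.02 (SE 0.14) for Exosc9. Elovl1, which overlaps Cdc20 by 53 bases, rose by 0.38 (SE 0.12). Prc1 shares 911 exon bases with Rccd1, Cdc25c shares 623 with Gm3550, and Ube2c shares 592 with Tnnc2. Rccd1, Gm3550 and Tnnc2 held 537, 117 and 3 counts in all libraries together. Other members, such as Cdca8 and Nusap1, share shorter stretches with a neighbour. Mybl2 and Racgap1 have processed pseudogenes with 99.7% and 98.2% identity over part of their length, which held 78 and 44 counts in all libraries together. Ndc80 matches 2700099C18Rik, a processed transcript with 454 counts in all libraries together, at 95% identity over 303 bases. The single values of these members are uncertain too.

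Other cell division genes, from lists drawn up beside the members with earlier results known, mostly fell as well. Of 36 other kinetochore, centromere and checkpoint genes, 31 fell, none rose and 5 did not pass, with a median log2 fold change of -1.75. Pmf1 and Mis18a, which build kinetochores and centromeres, fell by 1.91 and 1.83, and Cenpm and Cenph fell by 2.76 and 2.84. Mis12, Cenpw, Bub3, Zw10 and Trip13 did not pass. All 20 other spindle and mitotic kinesin genes fell (median -1.74), Psrc1 by 3.18 (SE 0.18), Tacc3 by 1.74, Spag5 by 1.96 and the minus-end motor Kifc1 by 1.73. Of 15 other regulators of G2 and M phase, 13 fell and 1 rose (median -1.95). Cdc25b, another activator of Cdk1, averaged 29.1 ± 1.23 CPM in the knockout, against 153 ± 7.47 CPM in the control, and Cdca3, Pkmyt1 and Cks1b fell by 2.10, 2.54 and 1.80. Arpp19, an inhibitor of a phosphatase that opposes Cdk1, rose by 0.57. Condensin and cohesion genes (13 of 14 lower, median -1.03) and other cytokinesis genes (9 of 12 lower, 1 higher, median -1.2) had smaller medians. Ncaph, Ncapd2, Espl1 and Ncapg fell by 2.3, 1.94, 1.89 and 1.58, and Iqgap3, Cep55, Arhgap11a and Shcbp1 fell by 1.89, 2.18, 1.2 and 1.68.

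Of 46 genes of S phase and DNA replication, 45 fell, none rose and 1 did not pass (median -1.58). Tk1 and Lig1, which supply thymidine nucleotides and join DNA, fell by 2.56 and 2.29, and the helicase subunits Mcm5 and Mcm6 by 1.97 and 1.85. Of the 10 genes of G1 cyclins and kinases 7 fell and 1 rose, and Ccnd1 (cyclin D1) averaged 8.8 ± 0.097 CPM in the knockout, against 451 ± 22.4 CPM in the control. Ccnd2, Ccnd3 and Cdk2 fell by 2, 0.97 and 0.82. Of the 20 Cdk inhibitors, pocket proteins and DREAM subunits, most of which restrain the cycle, 10 fell, 3 rose and 7 did not pass (median -0.37). Cdkn2c, Cdkn2d, Rbl1 and Tfdp1 fell by 2.58, 1.07, 1.15 and 0.71, while Cdkn2a, Cdkn2b and Dyrk1a were those that rose. Of 5 E2F genes E2f8, E2f2 and E2f7 fell by 1.82, 1.51 and 1.73, and E2f1 and E2f3 did not pass. In the S phase list 16.2% of 37 promoters held TTTGAA and 62.2% held CCAAT. In the list of other spindle and mitotic kinesin genes 55.6% of 18 held TTTGAA and 72.2% held CCAAT. Across the other lists the CCAAT share ran from 22.2% (other cytokinesis genes) to 81.8% (other regulators of G2 and M phase). The members' CCAAT share of 72.7% lay within this range. The TTTGAA share ran from 9.52% (transport kinesins) to 66.7% (other cytokinesis genes). The SE of the list genes named with the smallest adjusted p was between 0.09 and 0.27 on the log2 scale, and their highest adjusted p was 0.000308. These lists were not tested against each other.

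**Figure D5:**
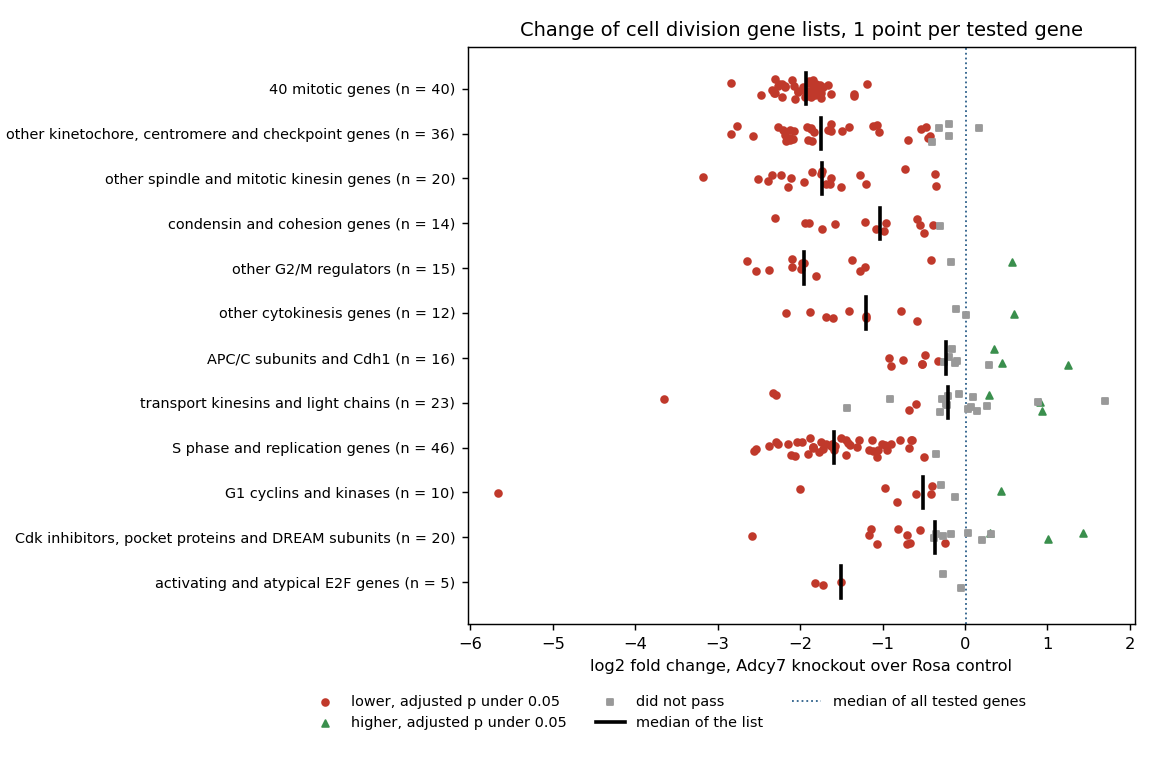
Log2 fold change of Adcy7 knockout over Rosa control for each tested gene of the 40 mitotic genes and of 11 other lists; the number of tested genes stands after each list name, black bars are list medians and the dotted line is the median of all tested genes. Red circles were called lower, green triangles higher, and grey squares did not pass. The 40 mitotic genes lie between -2.84 and -1.19 with a median of -1.93. The transport kinesins run from -3.65 to 1.69 (median -0.20) and the APC/C subunits from -0.92 to 1.25 (median -0.22).

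All 10 macrophage markers were detected in every group, and 9 of the 10 fell, with a summed level of 21700 to 21721 CPM in the knockout, against 58494 to 60200 CPM in the control. Lyz2 (lysozyme) carried most of this sum, and without it the other 9 markers summed to 5232 to 5281 CPM in the knockout, against 7990.3 to 8136 CPM in the control. Markers of other cells moved as well: in the knockout 7 of 8 tested eosinophil, 6 of 7 mast cell and basophil, 12 of 12 platelet and 5 of 7 erythroid markers rose. So did 6 of 8 B cell markers (1 fell) and 4 of 8 dendritic cell markers (2 fell). Their summed levels were 231 to 291 CPM in the knockout against 32.2 to 36.1 CPM in the control for eosinophils, 107 to 115 against 27.6 to 36.6 for mast cells and basophils, and 376 to 421 against 193 to 209 for platelets. Erythroid markers summed to 72.8 to 92.3 CPM in the knockout, against 18.9 to 21.9 CPM in the control, B cell markers to 49.3 to 52.3 against 33.1 to 35.3, and dendritic cell markers to 49.6 to 50.3 against 23 to 26.8. Cd79b, the B cell marker that fell, carried most of the B cell sum in the control. Without it the B cell sums were 33.6 to 35 CPM in the knockout, against 7.33 to 10.2 CPM in the control. Without Pf4 the platelet sums were 187 to 213 CPM in the knockout, against 38.6 to 40.6 CPM in the control. The higher dendritic cell sum rested on Ccr7, without which the markers summed to 8.48 to 9.15 CPM in the knockout, against 20.3 to 24.6 CPM in the control. Of the 10 myeloid progenitor markers, which mark early precursors, 5 rose (Kit, Cd34, Ctsg, Flt3 and Ms4a3) and 3 fell (Mpo, Elane and Prtn3). Their sums were 344 to 365 CPM in the knockout, against 389 to 478 CPM in the control. Without Prtn3, the highest of them, the sums were 239 to 246 CPM in the knockout, against 251 to 313 CPM in the control. Neutrophil markers summed to 11401 to 13235 CPM in the knockout, against 8113 to 9485 CPM in the control (2 of 10 higher, 3 lower). Without Lcn2 (lipocalin 2) the neutrophil sums overlapped, at 5831 to 7478 CPM in the knockout, against 6120 to 7350.2 CPM in the control. T and NK cell markers (1 of 4 tested higher, 1 lower) and stromal markers (3 of 8 higher) summed to 9.91 to 11.1 and 62.9 to 69.3 CPM in the knockout, against 4.91 to 5.32 and 15.6 to 20.3 CPM in the control. Without Lck the T and NK cell sum was 2.65 to 2.89 CPM in the knockout, against 3.62 to 4.29 CPM in the control. Among defining markers, Il5ra and Ear6 (eosinophil) and Fcer1a (mast cell) had no count in the control, Mcpt4 and Cma1 (mast cell), Igll1 (B cell), Ncr1 (NK cell), Car1 (erythroid) and Lepr (stromal) had none in either group, Alas2, Cd209a and Siglech had none in the knockout, and Cxcl12 had none in the control. The part of these cells in the fall of the mitotic genes was not tested.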

How the data were processed

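Poly(A) RNA of 4 BMDM libraries (2 Adcy7 knockout, 2 Rosa control) was sequenced. The deposited table lists, by Ensembl gene, the authors' estimated counts: whole numbers whose sums differ between libraries, so no scaling is apparent. Per the submitters' processing notes, the tools were HISAT2, StringTie, fastp and edgeR, and the build was GRCm39; no versions, order or settings are named there. Of counts between 1 and 40, 30.5% to 32.2% were multiples of 4, where 25% would be if every whole number in that range were equally common. That 1 fragment was worth about 4 counts is an assumption. Tests used the deposited counts, with a division by 4 as an alternative. Knockout columns are headed KO3 plus a replicate number, which tied them to the sample titles; what the 3 stands for was not stated.

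Genes were filtered with filterByExpr, normalized by TMM, and fitted in edgeR 4.0.16 under R 4.3.3 (quasi-likelihood test with legacy off, threshold 0.05 after Benjamini-Hochberg adjustment of 15832 p-values, glmTreat for a fold of 2). The libraries left 2 residual degrees of freedom. Each SE was derived from the quasi-likelihood test, as the absolute log2 fold change divided by the square root of its F statistic. Symbols came from GENCODE vM21 names (55141 of 55401 IDs) and promoters from RefSeq, both GRCm38, so no gene coordinates of the counts are given. CPM divides a count by its library's total over all listed genes. Alternatives were DESeq2 1.42.0, other scaling and filters, leaving out each library, and a replicate block. Replicates of a group differed by more than sampling noise (chi-square over its degrees of freedom after division by 4: 10.6 for the knockout pair, 6.2 for the control pair). The members, lists and tests were chosen with earlier results of these data known. All members and, from each other list, up to 4 genes with the smallest adjusted p are named; further names, for genes that rose or did not pass, and the pairs in ratios were chosen after their values were seen. Of the marker genes with no count in a group, 1 is not reported here.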

Additional observations from a re-analysis of the deposited data

How the results depend on the processing

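All 40 members were called lower under each of the 11 alternatives, with the highest adjusted p at 0.00717, and their median log2 fold change lay between -2.10 and -1.75 when 1 library was left out. The number lower by more than 2-fold was 39 with DESeq2's size factors in edgeR, with counts divided by 4, with the replicate block and with edgeR's legacy method, which was added after the data were seen. It was 38 with a mean of at least 1 CPM, 36 without the low-count filter, 36 with DESeq2, and 37 to 38 when 1 library was left out. The members lost were Mybl2, Cdc25c, Ttk and Incenp in different combinations, and Mki67 passed without knockout replicate 1 (adjusted p = 0.0405). Over the 11 other lists together, transport kinesins included, the number of genes called higher was 12, and 6 without the low-count filter and 5 to 13 when 1 library was left out (5 without Rosa control replicate 1); the 161 called lower stayed between 149 and 164 under every alternative. The share of member promoters with TTTGAA was 33.3% in the 250 bases before the start alone (16.3% of all promoters). With TTCGAA included it was 36.4% (17.4% of all promoters). That window drops matches at and after the start. With 100 bases before to 50 after, TATAAA was in 0% (0 of 33), against 7.28% of all promoters and 3.25% of those of tested genes. With the replicate number as a block, 7843 genes were called against 7848 without it, and all 40 members remained lower. The labels do not say that a number marks a shared animal, culture or day, and deviations of same-numbered libraries had a correlation across genes of 0.0264. With 2 numbers this does not settle whether they pair the libraries. Members with the fewest counts, down to 87 in 1 knockout library, had the largest SE.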
